A study of Mus musculus with 8 samples.

Results

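The cells described here were 587 Foxp3-positive regulatory T cells (Tregs) among 12828 cells that passed the filters on genes and UMIs, or 4.58% of them. A UMI is 1 counted RNA molecule. Members were chosen by their raw UMI counts: a passing cell was called a Treg when it held at least 1 UMI of Foxp3, at least 1 UMI of the CD3 chains Cd3d, Cd3e or Cd3g, no UMI of Cd8a or Cd8b1, fewer than 5 UMIs of the myeloid lysozyme Lyz2, and none of the NK receptor Ncr1 or the B cell gene Cd79a. As comparator, 788 Foxp3-negative CD4 T cells came from the same gate with no Foxp3 UMI and at least 1 UMI of Cd4.

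The study asked whether CD8+ T cells engineered with complementary secreted modules could reject solid tumors after adoptive transfer (ACT), and profiled CD45+ tumor-infiltrating leukocytes (TILs) by single-cell RNA sequencing. Female C57BL/6 mice bore B16-OVA melanoma and, apart from the non-treated animals, received OT1 T cells, which recognize an ovalbumin peptide, without preparative lymphodepletion. The modules were PD1d, a secreted decoy form of PD-1, IL-2v, an IL-2 variant that does not bind the IL-2 receptor alpha chain, and the alarmin IL-33. Each condition pooled tumors from 5 mice, so each of the 8 libraries is 1 sample and holds no measure of the spread between animals.

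Non-treated mice gave 1 library at day 5, and mice given untransduced OT1 cells (untransduced ACT) gave libraries at days 5 and 12. PD1d/IL-2v ACT and PD1d/IL-33 ACT each gave 1 library at day 12. PD1d/IL-2v/IL-33 treatment, a mixture in equal parts of PD1d/IL-2v cells and PD1d/IL-33 cells, is called orthogonal ACT here and gave libraries at days 5, 12 and 26. The labels mark time only as T1, T2 and T3. The study text gives days 5 and 12 for this experiment, and T3 was read as day 26. All 4 libraries with the IL-33 module also carried PD1d, and 3 of them carried IL-2v, so these modules cannot be fully told apart. The sort was enriched in CD8+ TILs, which can set the share of any cell type among all cells.

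Tregs are CD4 T cells that restrain immune responses, and their identity rests on the transcription factor Foxp3. They express the high-affinity IL-2 receptor and take up IL-2, display CTLA-4, which removes costimulatory ligands from antigen-presenting cells, and in tumors limit the activity of effector T cells. A subset that resides in tissues carries ST2, the IL-33 receptor encoded by Il1rl1, and makes amphiregulin, a growth factor that acts in tissue repair.

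The 8 libraries held between 1387032 and 24917112 deposited UMIs over 400 to 3700 barcodes. They gave 106 Tregs in untransduced ACT at day 5, 22 in untransduced ACT at day 12, 16 in non-treated tumors and 160 in PD1d/IL-2v ACT. PD1d/IL-33 ACT gave 24 Tregs, and orthogonal ACT gave 58 at day 5, 33 at day 12 and 168 at day 26. The summed depth over the Tregs of a library ran from 105715 UMIs in non-treated tumors to 1164253 UMIs in PD1d/IL-2v ACT, so values from the libraries with few Tregs carry wide counting errors. The median depth of a Treg was 5358 UMIs, with library medians between 5028.5 and 6235 UMIs. Foxp3-negative CD4 T cells had a median of 4139 UMIs, and a deeper cell has a greater chance of showing a Foxp3 UMI. Among passing cells, 190 shared a barcode sequence with a cell of another library, and 13 Tregs were among those whose sequence recurred. In the table that joined the libraries, 3 pairs of libraries carried the same identifier: untransduced ACT and orthogonal ACT at day 12, non-treated day 5 and orthogonal ACT day 26, and PD1d/IL-2v ACT and PD1d/IL-33 ACT at day 12.

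The gated cells carried the other markers of the lineage in every library. Levels are given as UMIs of a gene per 1000000 UMIs (CPM), summed over the Tregs of a library. Foxp3, whose presence the gate fixed, ranged from 464 to 759 CPM with a median of 647. Ctla4, the inhibitory receptor, ranged from 1330 to 3291 CPM with a median of 2130. Tnfrsf4, the costimulatory receptor OX40, ranged from 1016 to 2117 CPM. Ikzf2, the transcription factor Helios, ranged from 861 to 1635 CPM, and Izumo1r, the folate receptor FR4, from 218 to 474 CPM. The 4 markers outside the gate were detected in each of the 8 libraries. Of the 587 Tregs, 82 held 1 Foxp3 UMI and 505 held 2 or more, with a median of 4 and a highest value of 21, and 401 (68.3%) held a UMI of Cd4.

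Around the Foxp3 threshold, Ikzf2 was near level from 1 Foxp3 UMI upward, while Ctla4 and Tcf7 still varied with the number of UMIs. Pooled over libraries, Ikzf2 stood at 116 CPM in cells with no Foxp3 UMI, 1137 CPM with 1 UMI, 1148 CPM with 2 and 1049 CPM with 3 or more. Ctla4 stood at 432, 1882, 2239 and 2669 CPM across the same steps. Cd40lg, the CD40 ligand of helper T cells, stood at 290, 6.96, 10.4 and 12.8 CPM, and Tcf7, a factor of resting and memory T cells, at 129, 30.2, 4.17 and 3.83 CPM.

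Among markers of other cell types, 6 genes of CD8 T cells, of which the gate had set Cd8a and Cd8b1 to 0, summed to 877 to 2516 CPM per library. The most abundant was the chemokine Ccl5 at 1127 CPM over all Tregs, followed by Nkg7 at 809 CPM, and both are also made by other T cells. The summed level of 10 monocyte and macrophage genes, of which the gate had limited Lyz2, was 8.51 to 47.3 CPM in 7 libraries and 196 CPM in orthogonal ACT at day 5, with Cd68 the most abundant at 11.9 CPM over all Tregs. The summed level of 8 dendritic cell genes ran from 276 CPM in PD1d/IL-33 ACT to 1313 CPM in orthogonal ACT at day 26, with Cd74, the class II invariant chain, the most abundant at 633 CPM over all Tregs, and Flt3 at 0. At day 26 Cd74 made up 1042 CPM of that sum, with 33.1% of its UMIs in 1 cell. The 6 NK cell genes, of which the gate had set Ncr1 to 0, summed to 236 CPM in orthogonal ACT at day 5 and to 8.18 to 82.0 CPM elsewhere, mostly Gzma. Of 4 measured B cell genes, Cd79b had UMIs and the other 3, Cd79a of the gate included, were at 0, neutrophil genes reached 51.5 CPM in PD1d/IL-2v ACT and were at or below 18.9 CPM elsewhere, and melanoma, fibroblast and red cell genes stayed at or below 9.46 CPM in sum.

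The first comparison asked how large the Treg share of CD4 T cells was in each tumor pool. Tregs made up 51.2% of the 2 CD4 populations in untransduced ACT at day 5 (exact 95% Clopper-Pearson interval 44.2 to 58.2%), 56.4% at day 12 (39.6 to 72.2%), 57.1% in non-treated tumors (37.2 to 75.5%) and 77.7% in PD1d/IL-2v ACT (71.4 to 83.2%). With the IL-33 module they made up 27.0% in PD1d/IL-33 ACT (18.1 to 37.4%), and 28.6% (22.5 to 35.3%), 25.6% (18.3 to 34.0%) and 35.4% (31.1 to 39.9%) in orthogonal ACT at days 5, 12 and 26. Every library with the IL-33 module lay below every library without it, and the highest share, in PD1d/IL-2v ACT, had an interval that met only that of non-treated tumors and that of untransduced ACT at day 12. Intervals cover counting error only.

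**Figure D1:**
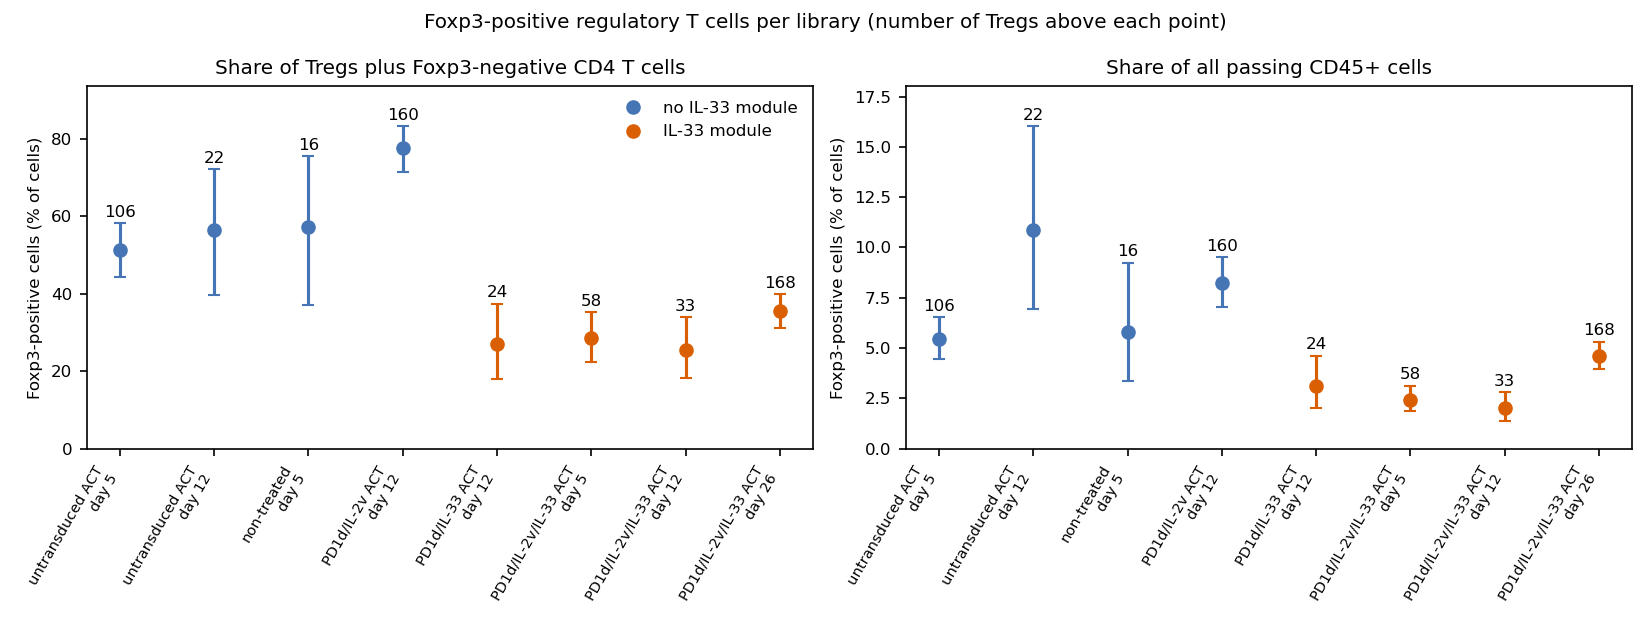
Share of Tregs in each of the 8 libraries, in percent, among Tregs plus Foxp3-negative CD4 T cells and among all passing cells. Points are libraries, bars are exact 95% intervals and the numbers above them count Tregs. The 4 libraries with the IL-33 module sit between 25.6 and 35.4% of the CD4 populations, and the 4 without it between 51.2 and 77.7%.

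Across libraries the mean share was 29.1% ± 4.38 (SD, n = 4) with the IL-33 module and 60.6% ± 11.7 (SD, n = 4) without it, a difference of -31.5 percentage points. The two-sided exact permutation test gave p = 0.0286, the smallest value that 70 regroupings of 8 libraries allow, and 0.257 after Benjamini-Hochberg adjustment over the 18 tests of the 2 modules, so the difference did not pass after adjustment. Within the 3 pairs that shared an identifier the difference was -30.8, -21.7 and -50.7 percentage points. The last of these set PD1d/IL-33 ACT against PD1d/IL-2v ACT at day 12, both with PD1d.

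The order of the groups was kept with other denominators. Among T cells without a Cd8 UMI, the share differed by -16.6 percentage points with the IL-33 module, and among all passing cells by -4.54. Each had an exact permutation p of 0.0286, again the smallest possible, and 0.257 after adjustment. The same Tregs are counted each time, so these are not separate tests. As a share of all passing cells, Tregs were 5.43, 10.9, 5.80 and 8.22% in the libraries without the module and 3.13, 2.43, 2.01 and 4.60% in those with it. The comparator itself also differed between these libraries. In Foxp3-negative CD4 T cells, Il13, a type 2 cytokine, stood at 736 CPM in PD1d/IL-33 ACT and at 3840, 645 and 17.9 CPM in orthogonal ACT at days 5, 12 and 26, against 10.9 CPM in untransduced ACT at day 5, 39.5 CPM in PD1d/IL-2v ACT, and no UMI in untransduced ACT at day 12 or non-treated tumors. Il13 in Tregs was at or near 0 throughout, with a highest level of 18.9 CPM in orthogonal ACT at day 5, and the part of these type 2 cells in the share was not tested. For the IL-2v module, the mean share was 41.8% ± 24.3 (SD, n = 4) with it and 47.9% ± 14.2 (SD, n = 4) without it (exact permutation p = 0.657). That difference of -6.12 percentage points ran from -18.1 without PD1d/IL-2v ACT to -0.704 without orthogonal ACT at day 12, and within the 3 pairs it was -30.8, -21.7 and 50.7. The paper reports that IL-2v raised the absolute number of CD4+ Tregs, which a share of sequenced cells does not measure.

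The second comparison asked what distinguished Tregs from Foxp3-negative CD4 T cells of the same tumors. UMIs were summed per library and population and fitted with edgeR's quasi-likelihood test with the library as a block, over 8 libraries and with the gate genes left out. Of 4451 genes tested, 483 were higher in Tregs (10.9%) and 477 lower (10.7%) at a Benjamini-Hochberg adjusted p under 0.05. Without orthogonal ACT at day 26, 302 genes were higher and 359 lower. The median log2 fold change over all genes was -0.00156.

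The lineage markers outside the gate stood apart in all 8 libraries. Ikzf2 was higher in Tregs by 3.07 on the log2 scale (SE 0.24, adjusted p = 8.92e-09), Izumo1r by 2.62 (SE 0.19), Ctla4 by 2.27 (SE 0.24) and Tnfrsf4 by 1.62 (SE 0.16). Of 9 further genes often used to recognize Tregs, 8 were higher, including Lrrc32, which displays latent TGF-β, and Capg, an actin-capping protein, at 1019 CPM against 254 CPM. The exception was Nrp1, neuropilin-1, which was lower at 43.2 CPM against 107 CPM (log2 fold change -1.50, SE 0.22, adjusted p = 2.81e-05).

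**Figure D2:**
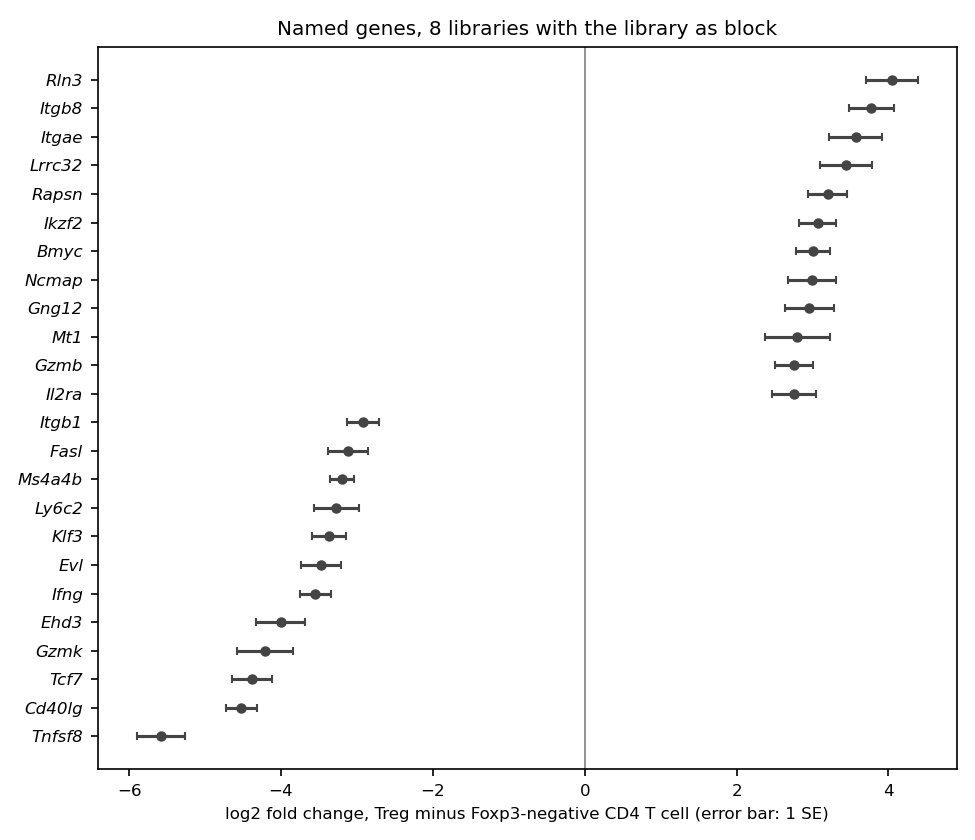
Log2 fold change of Tregs against Foxp3-negative CD4 T cells for the genes named by the rule, 12 higher and 12 lower, with bars of 1 SE from edgeR's fit over 8 libraries. Changes run from 4.05 for Rln3 down to -5.59 for Tnfsf8, and every gene shown had the same direction in all 8 libraries.

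The 12 genes with the highest fold change were led by Rln3, the peptide hormone relaxin 3, at 158 CPM in Tregs against 7.43 CPM (log2 fold change 4.05, SE 0.34, adjusted p = 2.33e-08). A group of 3 surface proteins followed: Itgb8, the integrin that releases active TGF-β (3.77, SE 0.30), Lrrc32, which holds latent TGF-β on the Treg surface (3.44, SE 0.34), and Itgae, the αE chain that binds E-cadherin (3.57, SE 0.34). The list also held Ikzf2, the IL-2 receptor alpha chain Il2ra (2.76, SE 0.30), the cytotoxic protease Gzmb (2.76, SE 0.25) and the metal-binding protein Mt1 (2.80, SE 0.43). Rapsn, known from the neuromuscular junction, Bmyc, a relative of Myc, Ncmap, known from myelin, and the G protein subunit Gng12 completed it, with log2 fold changes of 2.96 to 3.20.

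The 12 genes with the lowest fold change were led by 2 ligands of helper T cells. Tnfsf8, the CD30 ligand, stood at 2.96 CPM in Tregs against 193 CPM (log2 fold change -5.59, SE 0.32, adjusted p = 8.89e-11), and Cd40lg at 11.9 CPM against 290 CPM (-4.52, SE 0.21). Ifng, interferon gamma, was at 16.8 CPM against 231 CPM (-3.55, SE 0.21), Fasl, the death ligand, at 10.4 CPM against 96.4 CPM (-3.12, SE 0.26), and Gzmk, granzyme K, at 8.65 CPM against 119 CPM (-4.21, SE 0.37). Tcf7 stood at 6.67 CPM against 129 CPM (-4.38, SE 0.26). The others were Klf3, a transcription factor, Evl, which regulates actin, Ehd3, a membrane traffic protein, the surface proteins Ly6c2 and Ms4a4b, and the integrin chain Itgb1, with log2 fold changes of -4.01 to -2.92.

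Among 27 tested transcription factors, 5 were higher in Tregs and 10 lower, with a list median of -0.12. Besides Ikzf2, its family member Ikzf4 (Eos) was higher by 2.44 (SE 0.29), Maf by 1.38 (SE 0.19), Prdm1 (Blimp-1) by 1.12 (SE 0.23) and Nfil3 by 1.08 (SE 0.17). Those lower included Bhlhe40 by -1.66 (SE 0.15), Klf2, which keeps T cells in circulation, by -1.60 (SE 0.28), Runx3 by -0.88 (SE 0.14) and Gata3, the type 2 factor, by -0.80 (SE 0.22).

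The alpha and beta chains of the IL-2 receptor were higher, while the gamma chain and most of the pathway below it did not pass the test. Il2ra stood at 534 CPM in Tregs against 181 CPM, and Il2rb, the beta chain, at 651 CPM against 371 CPM (0.62, SE 0.11). The pooled Il2ra level of the comparator leaned on orthogonal ACT at day 5, at 574 CPM, with at most 84.0 CPM in any other library. Il4ra, the IL-4 receptor, was the third of 15 tested genes that were higher (0.56, SE 0.19, adjusted p = 0.0355). Bcl2, a survival protein, was lower at 12.6 CPM against 101 CPM (-3.06, SE 0.27), as was Socs3 (-1.62, SE 0.17). The other 10 genes, among them Il2rg, the kinases Jak1 and Jak3, Stat5a, Stat5b and the STAT5 target Cish, did not pass.

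Costimulatory receptors were mostly higher. Of 10 costimulatory genes tested, 7 were higher and 2 lower (list median 0.998), with Tnfrsf9 (4-1BB) at 1522 CPM against 322 CPM, Icos at 1435 CPM against 690 CPM and Tnfrsf18 (GITR) at 950 CPM against 393 CPM. The 2 lower genes were Cd28 (-0.49, SE 0.12) and Cd226 (-2.84, SE 0.26), an activating receptor. Of 8 inhibitory receptors tested, 4 were higher (Ctla4, Tigit, Lag3 and Havcr2), 2 did not pass and 2 were lower: Pdcd1, which encodes PD-1 (-0.77, SE 0.25, adjusted p = 0.0278, higher in 2 of 8 libraries), and Cd96 (-2.15, SE 0.24).

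Of 15 tested genes of suppressive function, 10 were higher and 1 lower (list median 1.01). The enzymes that make adenosine from extracellular nucleotides were both higher, Entpd1 (CD39) by 1.85 (SE 0.22) and Nt5e (CD73) by 0.87 (SE 0.15). Il10 was at 48.9 CPM against 34.6 CPM, and its difference did not pass the test (adjusted p = 0.305). Of 11 genes of tissue Tregs, 6 were higher and Gata3 was lower (list median 1.08). Klrg1, a receptor of differentiated cells, was higher by 2.45 (SE 0.37), Ccr2 by 1.99 (SE 0.19) and Ccr8 by 1.23 (SE 0.22). Il1rl1 and Areg did not pass, with log2 fold changes of -0.07 (SE 0.31) and 1.27 (SE 0.49), and both varied widely among libraries in each population.

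Genes of homing and of the resting state differed gene by gene. Of 17 chemokine receptor and homing genes, 6 were higher, including Ccr2, Ccr8 and Itgae given above and Itgb7 (0.49, SE 0.13), and 5 lower, including Cxcr6 (-2.36, SE 0.21), S1pr1 (-2.18, SE 0.22) and Itga4 (-2.25, SE 0.17). Of 9 genes of resting T cells, 5 were lower, among them Tcf7, Klf2 and Lef1 (-1.06, SE 0.22). The 3 helper cytokine or ligand genes tested, Ifng, Lta and Cd40lg, were all lower. The other 11 of that list did not pass the filter on low counts, which does not mean a low level in every library.

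Genes of the cell cycle were mostly higher, with 15 of 17 tested higher in Tregs and none lower (list median 0.94). Mki67, a proliferation marker, stood at 107 CPM against 43.6 CPM (1.35, SE 0.20, adjusted p = 4.74e-05), and Ube2c was higher by 1.58 (SE 0.31). After each cell was thinned to 2000 UMIs, an Mki67 UMI was found in 9.20% of Tregs (95% interval 6.99 to 11.8%) and 4.44% of Foxp3-negative CD4 T cells (3.11 to 6.12%), and in 1.21% of 1158 Lyz2-high cells without CD3, whose median depth was 9340 UMIs. Without thinning the 3 shares were 16.9, 7.61 and 3.97%.

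Metabolic genes were higher in 4 of 9 cases and lower in none, led by the fatty acid binding protein Fabp5 (1.37, SE 0.15). Of 10 interferon response genes, 3 were higher and 4 lower, and of 8 genes downstream of the T cell receptor, Myc was higher and 4 were lower, among them Egr1 (-1.78, SE 0.23) and Cd69 (-1.14, SE 0.16). Of 6 cytotoxic and chemokine genes, Gzmb and Ccl4 were higher and Gzmk and Ccl5 lower. Stress and dissociation genes were lower in 6 of 9 cases and higher in none, with Hspa1a at 83.0 CPM against 314 CPM. The handling of the cells was shared by both populations of a library, and its part in these genes was not tested.

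The third comparison asked which genes of Tregs differed with the IL-33 module, and Il1rl1 had the smallest p. In the libraries without the module Il1rl1 stood at 53.2 CPM in untransduced ACT at day 5, 51.8 CPM at day 12, 9.46 CPM in non-treated tumors, where it rests on 1 UMI, and 31.8 CPM in PD1d/IL-2v ACT. With the module it stood at 224 CPM in PD1d/IL-33 ACT and at 227, 306 and 113 CPM in orthogonal ACT at days 5, 12 and 26. The 2 sets of libraries did not overlap, and the lowest level with the module, at day 26, had an exact Poisson interval of 93.9 to 135 CPM.

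Il1rl1 is transcribed from separate start sites, which give membrane-bound and soluble forms of ST2. The 300 bases around 2 of these starts, from 250 before to 50 after in the RefSeq annotation of GRCm38.p6, are shown because Il1rl1 and the factor Gata3 are described side by side below. The first window is chr1:40429320-40429619 and the second chr1:40439379-40439678, both on the plus strand, and capitals mark matches to AGATAA, a form of the motif that GATA factors bind, or to TTATCT, the same motif on the other strand.
Il1rl1 start 1: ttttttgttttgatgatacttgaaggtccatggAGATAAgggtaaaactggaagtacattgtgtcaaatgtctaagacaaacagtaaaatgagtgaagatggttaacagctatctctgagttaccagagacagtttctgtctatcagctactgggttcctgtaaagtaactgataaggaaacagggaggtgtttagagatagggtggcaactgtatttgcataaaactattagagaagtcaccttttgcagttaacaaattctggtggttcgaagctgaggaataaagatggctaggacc
Il1rl1 start 2: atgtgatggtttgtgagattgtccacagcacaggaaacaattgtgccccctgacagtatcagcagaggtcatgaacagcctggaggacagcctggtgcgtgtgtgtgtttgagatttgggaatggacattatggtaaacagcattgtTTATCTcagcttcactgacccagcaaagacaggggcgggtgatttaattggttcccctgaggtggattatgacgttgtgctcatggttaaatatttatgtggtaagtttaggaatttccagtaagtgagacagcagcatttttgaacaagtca
Each window held 1 match. Of 32851 promoter windows of this length, 3672 (11.18%) held at least 1, so a match is a description of the letters and not a site of binding.

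In the fit of both modules over 8 libraries, Il1rl1 was higher with the IL-33 module by 2.63 on the log2 scale (SE 0.42), with an adjusted p of 0.0524 from edgeR's quasi-likelihood test, which just missed the threshold. The log2 fold change stayed between 2.27 and 2.88 over 18 alternatives, whose adjusted p ran from 1.01e-10 to 0.9997 and passed in 6. The highest of these came without PD1d/IL-33 ACT, when no library carried IL-33 apart from IL-2v. On the log2(CPM + 10) scale the means were 7.75 ± 0.58 (SD, n = 4) with the module and 5.40 ± 0.79 (SD, n = 4) without, with an exact permutation p of 0.0286 that became 0.257 after adjustment. Within the 3 pairs sharing an identifier the difference was 2.36, 2.66 and 2.49.

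**Figure D3:**
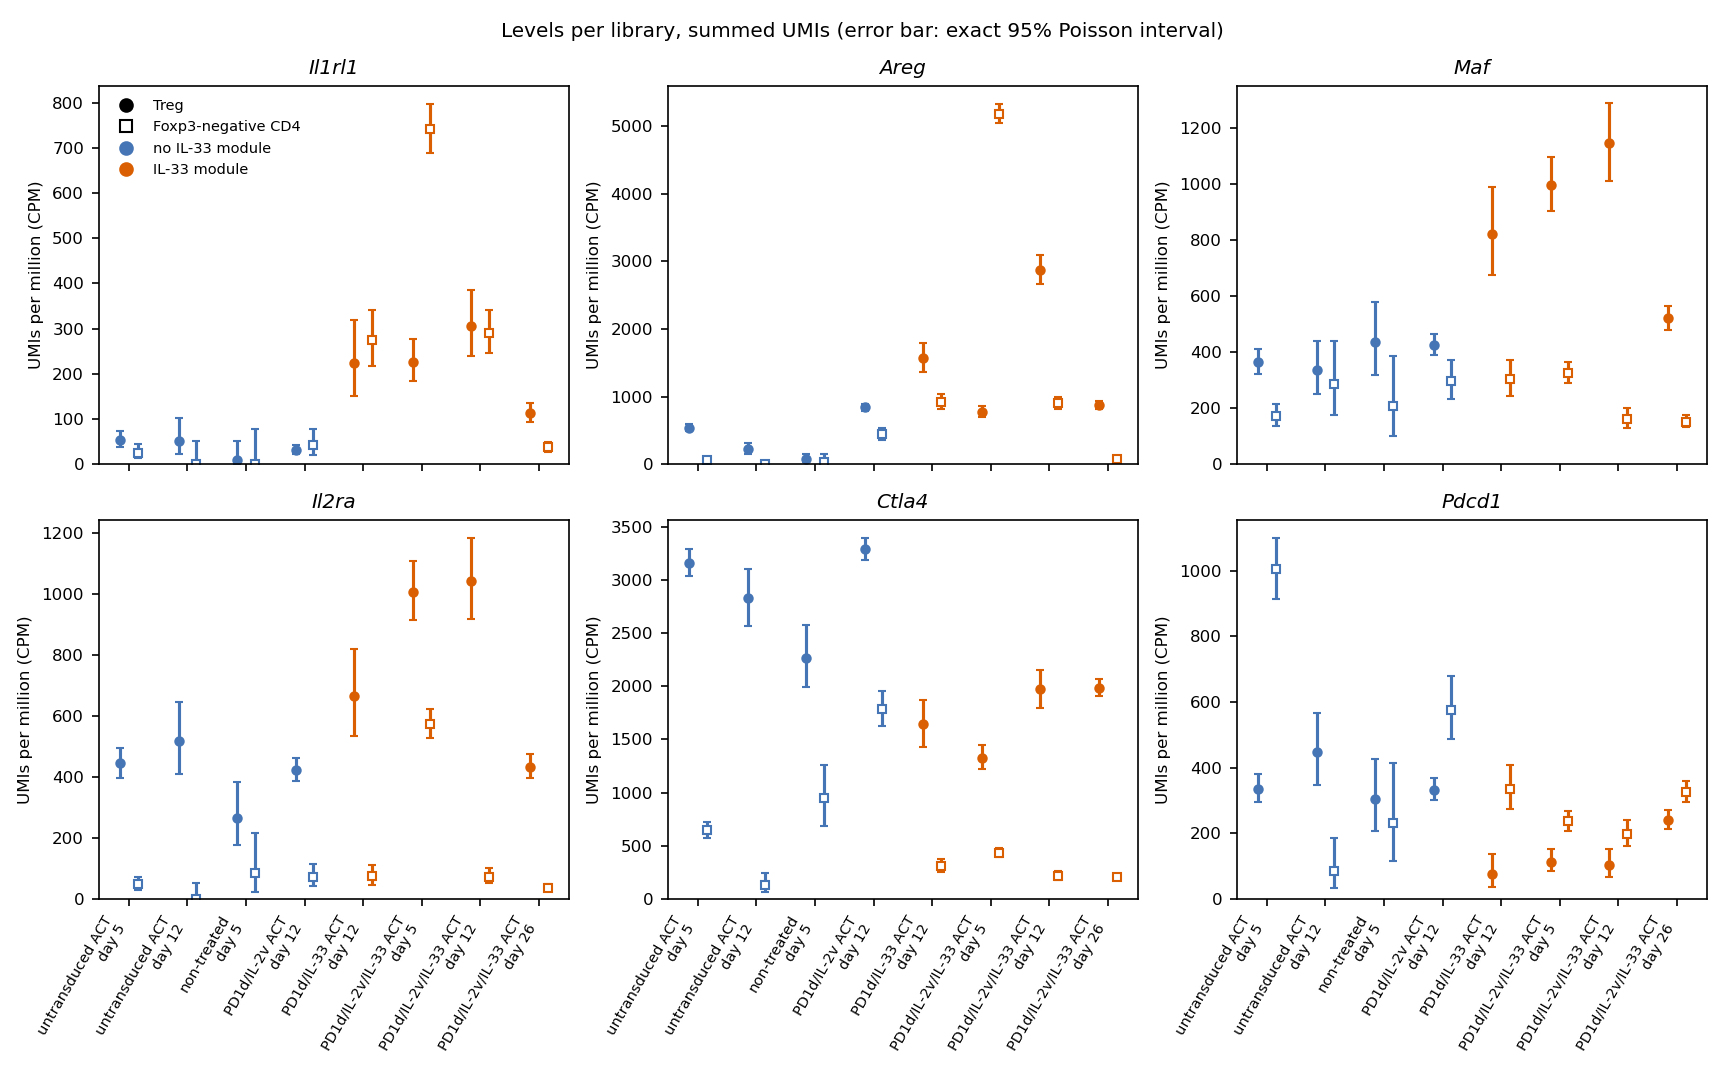
Levels of 6 genes in CPM, on linear axes that start at 0, in Tregs (circles) and Foxp3-negative CD4 T cells (squares) of the 8 libraries, with bars of the exact 95% Poisson interval. Il1rl1 in Tregs lies between 113 and 306 CPM in the 4 libraries with the IL-33 module and between 9.46 and 53.2 CPM in the others, and Pdcd1 and Ctla4 in Tregs lie lower in every library with the module.

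No gene passed the adjusted threshold for the IL-33 module among 4229 tested, a share of 0%, while 432 had an unadjusted p under 0.05, 290 of them higher (6.86%) and 142 lower (3.36%). DESeq2 on the same counts called 9 genes higher and none lower. The fold changes of single genes below are therefore values and not calls. The result rested on orthogonal ACT at day 26: without that library 110 of 3593 genes tested were higher and 26 lower. With any other single library left out, at most 2 genes passed. Without the day 26 library, Il1rl1 was higher by 2.82 (SE 0.34, adjusted p = 0.00125 in edgeR). Maf (1.35), Areg (1.81) and Il2ra (1.10) were then also called higher, and Pdcd1 (-1.70), Ctla4 (-0.76) and Ccr8 (-1.62) lower.

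After Il1rl1, the smallest p-values among higher genes belonged to Ssbp3, a transcriptional cofactor (1.98, SE 0.38), Jund, an AP-1 subunit (1.05, SE 0.22), Wnk1, a kinase (1.38, SE 0.30), and Dgat2, which makes triglycerides (1.98, SE 0.43). Jund stood at 464, 492, 511 and 515 CPM without the module and at 1127, 978, 983 and 615 CPM with it. Among lower genes they belonged to Pdcd1 (-1.36, SE 0.34), Ctla4 (-0.74, SE 0.19), Actb, cytoplasmic actin (-0.65, SE 0.18), the glycolytic enzyme Pkm (-0.73, SE 0.21) and the histone gene Hist1h1b (-1.37, SE 0.41). All 10 had edgeR adjusted p between 0.0524 and 0.339. For all but Pkm, the libraries with and without the module did not overlap. Their direction within the 3 pairs that shared an identifier was therefore fixed and adds no support. Pkm, whose groups overlapped, differed by -0.33, -0.12 and -1.24 within these pairs.

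Pdcd1 and Ctla4 encode receptors that checkpoint antibodies block. Pdcd1 stood at 334 CPM in untransduced ACT at day 5, 447 CPM at day 12, 303 CPM in non-treated tumors and 332 CPM in PD1d/IL-2v ACT. With the IL-33 module it stood at 74.7 CPM in PD1d/IL-33 ACT and at 113, 102 and 240 CPM in orthogonal ACT at days 5, 12 and 26. Every library with the module lay below every library without it, with the day 26 library nearest to the others. For Ctla4 the levels were 3164, 2828, 2270 and 3291 CPM without the module and 1642, 1330, 1971 and 1989 CPM with it, in the same order of libraries, and these sets did not overlap either. Of all genes tested, 193 (4.56%) lay wholly below and 116 (2.74%) wholly above in the same sense.

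Areg, Maf and Il2ra were higher with the module without reaching the adjusted threshold. Areg, amphiregulin, stood at 540 CPM in untransduced ACT at day 5, 226 CPM at day 12, 75.7 CPM in non-treated tumors and 842 CPM in PD1d/IL-2v ACT, against 1568 CPM in PD1d/IL-33 ACT and 780, 2873 and 879 CPM in orthogonal ACT at days 5, 12 and 26. The groups overlapped through PD1d/IL-2v ACT, and the mean difference of 2.10 on the log2(CPM + 10) scale had an exact permutation p of 0.0571 (adjusted 0.257). Maf stood at 366, 337, 435 and 426 CPM without the module and at 821, 997, 1145 and 521 CPM with it (1.18, SE 0.27, adjusted p = 0.278 in edgeR), without overlap. Il2ra stood at 445, 518, 265 and 423 CPM without the module and at 664, 1007, 1043 and 433 CPM with it, with an overlap at day 26 and an exact permutation p of 0.0857 (adjusted 0.309).

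A part of these levels came from few cells. In orthogonal ACT at day 12, 17 of 33 Tregs held an Areg UMI, and 1 cell gave 25.5% of the 675 UMIs. In PD1d/IL-33 ACT, 10 of 24 Tregs held one, and 1 cell gave 51.0% of 210 UMIs. Il1rl1 at day 12 of orthogonal ACT came from 12 of 33 Tregs, with 30.6% of its UMIs in 1 cell.

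Across the lists, 26 transcription factors were tested for the IL-33 module, of which 22 had a fold change above 0 and 7 an unadjusted p under 0.05 in the higher direction (list median 0.31, against a median of -0.00192 over all genes). Besides Maf these included Satb1, a chromatin organizer (1.58, SE 0.42), Nfkb1 (1.31, SE 0.40), Ikzf2 (0.58, SE 0.19) and Gata3 (0.72, SE 0.30). Over all genes tested, 6.86% had an unadjusted p under 0.05 in the higher direction and 3.36% in the lower. Of 7 inhibitory receptors, 1 lay above 0 and 3 had an unadjusted p under 0.05 in the lower direction. Ccr8 among the tissue Treg genes was lower by -1.29 (SE 0.39) and did not pass (adjusted p = 0.344 in edgeR). Of 20 cell cycle genes, 3 lay above 0, 3 had an unadjusted p under 0.05 in the lower direction, and the list median was -0.48. All 9 stress and dissociation genes tested lay below 0, with a list median of -0.43, and 2 had an unadjusted p under 0.05. The lists were chosen with earlier results known and were not tested as sets, so the counts only describe their members. The part of cell handling in the module comparison was not tested.

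Gata3, the factor that supports ST2 expression in tissue Tregs, stood at 91.4, 136, 47.3 and 102 CPM without the module and at 172, 147, 170 and 118 CPM with it. The overlap was between untransduced ACT at day 12 and orthogonal ACT at day 26, and the mean difference was 0.70 on the log2(CPM + 10) scale (exact permutation p = 0.0571, adjusted 0.257), and 0.44 without non-treated tumors. Klrg1 differed by 0.24, Socs2 by 1.05, Cish by 0.04 and Bcl2 by -0.32 on the same scale, with exact permutation p from 0.2 to 0.886. The Socs2 difference was 0.35 without non-treated tumors, where it had no UMI, and that of Klrg1 ran from 0.11 without untransduced ACT at day 12 to 0.51 without PD1d/IL-2v ACT. Between the libraries with PD1d and 1 cytokine each, Klrg1 was lower in PD1d/IL-33 ACT than in PD1d/IL-2v ACT, a difference of -0.33 on that scale. The Poisson intervals of these levels overlapped. The share of Tregs with a Klrg1 UMI after thinning went the other way, at 54.2% in PD1d/IL-33 ACT and 47.5% in PD1d/IL-2v ACT, also with overlapping intervals.

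Foxp3-negative CD4 T cells of the same libraries are given beside the Tregs because Il1rl1 and Areg varied there too. Il1rl1 in them stood at 26.1, 0, 0 and 43.4 CPM without the module and at 274, 741, 290 and 37.3 CPM with it. Areg stood at 67.5, 0, 42.0 and 442 CPM without the module and at 917, 5178, 906 and 79.2 CPM with it. At day 26 both genes were lower in the comparator than in Tregs, where they stood at 113 and 879 CPM. Whether the 2 populations differed in their response was not tested. Genes of type 2 innate lymphoid cells, 7 in all and led by Rora at 226 CPM, summed in Tregs to 274 to 608 CPM without the module and 397 to 877 CPM with it. This list also holds Il1rl1 and Gata3, and its defining cytokines Il13 and Il5 were at or near 0 in Tregs, at most 18.9 and 9.45 CPM.

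The same pattern could be followed as a share of cells. After thinning to 2000 UMIs per cell, an Il1rl1 UMI was found in 8.49, 9.09, 6.25 and 3.13% of Tregs in untransduced ACT at days 5 and 12, non-treated tumors and PD1d/IL-2v ACT. With the IL-33 module it was found in 25.0% of Tregs in PD1d/IL-33 ACT and in 25.9, 24.2 and 15.5% in orthogonal ACT at days 5, 12 and 26. The exact 95% interval in PD1d/IL-2v ACT was 1.02 to 7.14%, and at day 26 it was 10.4 to 21.9%. In the small libraries the intervals were wide, such as 9.77 to 46.7% in PD1d/IL-33 ACT. Over all Tregs, with a median depth of 5358 UMIs, the share was 12.3% (19.9% without thinning), and in Lyz2-high cells without CD3, with a median of 9340 UMIs, 0.0864% (0.432% without thinning).

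Il1rl1-positive Tregs carried other genes at different rates, given here over all libraries without a test because the cells are not replicates. These shares are without thinning, unlike those above. Of 117 Tregs with an Il1rl1 UMI, 51.3% held an Areg UMI, against 33.4% of the 470 without an Il1rl1 UMI. For Klrg1 the shares were 70.9 and 53.2%, for Gata3 55.6 and 38.7%, and for Il2ra 80.3 and 67.7%. Il10 went the other way, at 5.13 and 16.8%, and Ccr8 was nearly level at 63.2 and 65.1%. The median depth was 5784 UMIs in the former and 5267 UMIs in the latter, and the libraries contributed unequally to both sets.

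The fourth comparison addressed the IL-2v module, whose product is designed not to use the alpha chain that Tregs carry. No gene passed the adjusted threshold among 4229 tested (0%), 137 had an unadjusted p under 0.05, and DESeq2 called 1 gene lower. Of the genes with the smallest p, Plek, a cytoskeletal regulator, was at 20.5, 25.9, 9.46 and 29.9 CPM in the libraries without IL-2v and at 67.0, 33.1, 51.1 and 60.1 CPM in those with it (1.43, SE 0.41, adjusted p = 0.948 in edgeR). The others in the higher direction were Ufsp2, a protease of the UFM1 system, the glycolytic enzyme Pgam1, the interferon-induced Gbp2 and Myc, with log2 fold changes of 0.90 to 1.63. In the lower direction they were Nrip1, a nuclear receptor corepressor (-1.19, SE 0.28), and 4 predicted genes, Gm15564, Gm9844, Gm11808 and Gm9843, which may share reads with other genes.

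Readouts of IL-2 signalling did not separate the libraries with IL-2v from those without. The differences in mean log2(CPM + 10) were 0.55 for Il2ra, -0.04 for Cish, 0.61 for Socs2 and -0.07 for Bcl2, with exact permutation p of 0.286, 0.857, 0.629 and 1. The Il2ra difference ran from 0.30 without non-treated tumors to 0.76 without PD1d/IL-2v ACT, and that of Socs2 from -0.16 without non-treated tumors to 1.10 without PD1d/IL-33 ACT. A design of 4 against 4 libraries on different days cannot show that the module left these genes unaltered. PD1d/IL-2v ACT had the highest Klrg1 level of the 8 libraries, 584 CPM against 229 to 490 CPM in the others, and the highest Ctla4 level. The exact Poisson interval of that Klrg1 level was 541 to 630 CPM. It overlapped 355 to 593 CPM in PD1d/IL-33 ACT and 404 to 588 CPM in orthogonal ACT at day 12. As a share of thinned cells, Klrg1 was found in 47.5% of Tregs in PD1d/IL-2v ACT and 54.2% in PD1d/IL-33 ACT.

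The last comparison followed Tregs of orthogonal ACT over days 5, 12 and 26. With 1 library per day there is no test, and the ratios carry intervals from counting error alone. A gene was counted when its log2 ratio of CPM + 10 was at least 1 in size and its interval left out 0. From day 5 to day 12, 26 of 1905 genes were higher (1.36%) and 29 lower (1.52%). From day 12 to day 26, 207 of 3644 genes were higher (5.68%) and 110 lower (3.02%), around a median of 0.10 for all genes. Genes needed 50 UMIs over both days, and the Tregs of day 26 held 1097971 UMIs against 234920 at day 12, so a gene high at day 26 alone entered at a lower CPM than one high at day 12 alone, and the 2 counts are not compared.

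**Figure D4:**
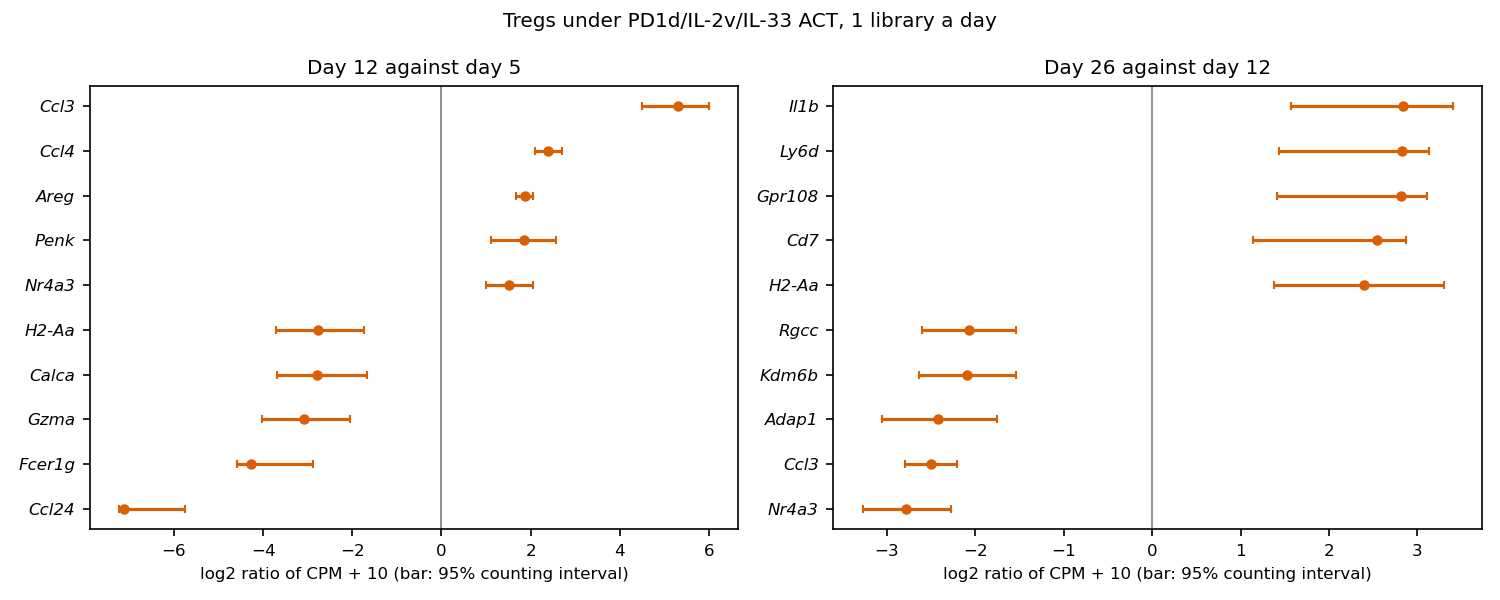
Log2 ratio of CPM + 10 in Tregs of orthogonal ACT between days 5, 12 and 26, for the genes with the highest and lowest ratios, with bars of the interval from counting error. Ccl3 and Nr4a3 are higher at day 12 than at both other days.

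The genes highest at day 12 against day 5 were the chemokines Ccl3 (856 CPM against 11.8 CPM, ratio 5.31) and Ccl4 (1558 CPM against 288 CPM, 2.39), Areg (1.87), Penk, proenkephalin (1.85), and Nr4a3, an early gene of T cell receptor signalling (1.51). Ccl3 was found in 8 of 33 cells and Ccl4 in 5, and single cells gave 47.3% of the Ccl3, 51.4% of the Ccl4, 55.0% of the Penk and 46.5% of the Nr4a3 UMIs. With that cell left out for each gene, an alternative chosen after seeing the data, the ratios were 4.46 for Ccl3, 1.42 for Ccl4, 1.61 for Areg, 0.84 for Penk and 0.69 for Nr4a3, so Penk and Nr4a3 no longer reached 1. Lower at day 12 were Gzma (-3.09), the class II gene H2-Aa (-2.77), Calca (-2.78), and Fcer1g and Ccl24, which had no UMI at day 12. These 5 genes rested on few cells: 1 cell of 12729 UMIs held 577 of the 580 Ccl24 UMIs, 97.3% of the H2-Aa UMIs and 71.8% of those of Fcer1g, and other single cells held 81.7% of Gzma and 98.4% of Calca. Without the first of these cells, Ccl24 at day 5 was at 7.31 CPM in place of 1371 CPM, and H2-Aa at 4.87 CPM in place of 175 CPM.

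From day 12 to day 26 the early gene Nr4a3 and Ccl3 were lower again. Nr4a3 stood at 35.5 CPM against 302 CPM (-2.78, interval -3.27 to -2.28), Ccl3 at 143 CPM against 856 CPM (-2.50), and Adap1, Kdm6b and Rgcc had ratios of -2.42 to -2.07. Il1rl1 stood at 113 CPM against 306 CPM (-1.36, interval -1.77 to -0.95, and -0.92 without the day 12 cell with the most Il1rl1 UMIs). Areg stood at 879 CPM against 2873 CPM (-1.70), Il2ra at 433 CPM against 1043 CPM (-1.25) and Maf at 521 CPM against 1145 CPM (-1.12). Higher at day 26 were the chemokine Ccl5 (1730 CPM against 421 CPM, 2.01), Cxcr3, a chemokine receptor of effector T cells (250 CPM against 72.4 CPM, 1.66), Pdcd1 (1.15) and Itgae (1.09). With the day 12 cell richest in each gene left out, the ratios were -1.95 for Nr4a3, -1.65 for Ccl3 and -1.44 for Areg. Foxp3 itself differed by 0.64 and Ctla4 by 0.01.

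The genes with the highest ratios at day 26 were mostly from few cells. A single cell of 16624 UMIs held 97.0% of Il1b, 88.3% of H2-Aa and 97.6% of the dendritic cell gene Cd209a, and Ly6d came wholly from 1 other cell. Cd7 came from 14 of 168 Tregs, with 49.1% of its UMIs in 1 cell. Gpr108, by contrast, was spread over 53 cells, at 60.1 CPM, and had no UMI at day 12.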

How the data were processed

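Whole-number UMI counts per gene and barcode were deposited by the authors as 1 matrix of 15700 barcodes and 27998 genes, made with Cell Ranger (version 2.2.0 in the submitters' processing notes) on GRCm38 from 10x 5′ libraries. Whether reads were subsampled on joining is not given in the sources used here. Passing barcodes had 500 to 6000 genes, 2000 to 40000 UMIs, 5 to 60% ribosomal protein UMIs and under 10% mitochondrial UMIs. Doublets were kept, since Scrublet called only 38 of 12828 cells (0.296%), and leaving out the 770 highest scores was an alternative.

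The members and gene lists were chosen with earlier results of these data known. Counts were summed per library and population and tested with edgeR 4.0.16 (R 4.3.3; TMM, filterByExpr, Benjamini-Hochberg, libraries with at least 10 cells), with DESeq2 1.42.0 as an alternative. Exact permutation tests (two-sided) used scipy 1.17.1, and Scrublet ran in scanpy 1.11.5. Levels had exact Poisson and shares exact Clopper-Pearson 95% intervals. Named genes were the 12 highest and 12 lowest fold changes at an adjusted p under 0.05, with 1 direction in every library and at least 20 CPM in the higher population, then the 5 smallest p-values per direction for each module, the 5 highest and lowest ratios by day (at least 50 UMIs), and listed genes. Other listed genes named by value, such as Cd209a and C1qa, come from the marker lists. On simulated counts, edgeR called 95.9% of genes changed by log2 1 between Tregs and Foxp3-negative CD4 T cells, and 35.1% of those so changed by the IL-33 module (96.8% at log2 2). The simulated counts had 1 mean per gene and the trended dispersion, with no other difference between treatments or days. These shares therefore do not give the power of the real comparisons. Alternatives were other gates, cell filters, scalings, filters on low counts, pseudocounts and each library left out. Promoter windows came from RefSeq.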

Additional observations from a re-analysis of the deposited data

Results flagged for a closer look

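Single libraries stood far from the other 3 of their set in 4 of 36 sets of 4 libraries examined, by the ratio of the gap to the range, which chance exceeds in about 1 set in 20. Klrg1 in orthogonal ACT at day 5 was at 7.90 on the log2(CPM + 10) scale (229 CPM), the lowest of the libraries with the IL-33 module. Areg in orthogonal ACT at day 12 was at 11.49 (2873 CPM), the highest of the libraries with the IL-2v module, with 25.5% of its UMIs in 1 cell. The other values came from non-treated tumors, which had 16 Tregs and 105715 Treg UMIs. Socs2 there was at 3.32, from 0 UMIs, in a library where 3 UMIs correspond to 28.4 CPM, and Bcl2 was at 5.84 (47.3 CPM).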

How the results depend on the processing

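The direction of the Treg share and of Il1rl1, Gata3, Areg, Klrg1 and Il2ra was kept under every alternative run for the IL-33 module, as a mean over the pairs sharing an identifier in the case of Klrg1, for which 1 of the 3 pairs went the other way (-0.329, PD1d/IL-33 against PD1d/IL-2v ACT). Small differences turned sign. For the IL-33 module, Cish became -0.0096 when Tregs needed a Cd4 UMI and -0.0994 to 0.181 without 1 library, and Bcl2 became 0.0516 with the later experiment's cell filter, 0.0161 with a stricter lineage gate and -0.526 to 0.0739 without 1 library. For the IL-2v module, Cish became 0.0661 with at least 2 Foxp3 UMIs, 0.251 with the later filter, 0.0334 without the highest doublet scores, 0.113 with the stricter gate, 0.189 as a mean over cells, 0.0378 within pairs and -0.203 to 0.0769 without 1 library. Bcl2 became 0.0537 with at least 2 Foxp3 UMIs, 0.204 with the later filter, 0.0346 with a pseudocount of 1 CPM and -0.237 to 0.362 without 1 library, and Socs2 ran from -0.161 (without non-treated tumors) to 1.10 without 1 library. The cause was not tested.

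The Treg share moved where Tregs needed a Cd4 UMI, to 42.3% in untransduced ACT at day 5 and to 19.9 and 25.6% in orthogonal ACT at days 5 and 26, and to 37.7% at day 5 of the latter when the gate followed thinning. Of T cells without Cd8, the share was 26.6, 33.3, 27.6 and 46.5% in untransduced ACT at days 5 and 12, non-treated tumors and PD1d/IL-2v ACT, 14.8% in PD1d/IL-33 ACT, and 17.9, 11.3 and 23.6% in orthogonal ACT at days 5, 12 and 26. Of passing cells it was 5.43, 10.9, 5.80, 8.22, 3.13, 2.43, 2.01 and 4.60% in the same order.

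Between Tregs and Foxp3-negative CD4 T cells, 769 genes were higher with no filter on low counts (more genes tested), 306 higher and 268 lower without the library block, and 302 to 514 higher with 1 library left out. For the IL-33 module, genes higher numbered 1 without the highest doublet scores, 9 with DESeq2, 66 with no filter (14 lower), 1 as the only term, and 0 to 110 (0 to 26 lower) with 1 library left out. For IL-2v they numbered 4 higher and 6 lower with no filter, 1 lower with DESeq2 and 0 to 1 lower with 1 library left out. The labels number no replicates, so conditions were not paired by replicate, and the differences within pairs of libraries sharing an identifier carry no test.

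Depth limits the small libraries: 3 UMIs correspond to 28.4 CPM in non-treated tumors and 2.58 CPM in PD1d/IL-2v ACT. For Socs2 and the IL-33 module, the difference ran from 0.352 to 1.35 with 1 library left out, and for Gata3 from 0.436 to 0.886 (0.407 when Tregs needed a Cd4 UMI). With a pseudocount of 1 CPM the Socs2 difference was 1.86 for the IL-33 module and 1.38 for IL-2v. With the later experiment's cell filter it was 0.494 and 0.113. Levels as a mean over cells moved beyond their counting interval in 36 of 56 cases, and shares without thinning in 81 of 144.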

Other observations

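Foxp3 was also found in T cells with CD8 transcripts, which the gate left out. Of 5265 T cells with a Cd8a or Cd8b1 UMI, 192 (3.65%, exact 95% interval 3.16 to 4.19%) held a Foxp3 UMI, with a median of 4 UMIs in those cells, against 5 of 1158 Lyz2-high cells without CD3 (0.432%). The median depths were 6094 and 9340 UMIs. By library the share was 6.39, 6.98, 6.10 and 8.73% in untransduced ACT at days 5 and 12, non-treated tumors and PD1d/IL-2v ACT, 2.15% in PD1d/IL-33 ACT, and 2.15, 1.22 and 2.96% in orthogonal ACT at days 5, 12 and 26. No test was run, and the intervals of the small libraries overlapped those of others, such as 1.46 to 19.1% in untransduced ACT at day 12 (3 of 43 cells), 2.01 to 13.7% in non-treated tumors (5 of 82) and 0.933 to 4.19% in PD1d/IL-33 ACT (8 of 372). In PD1d/IL-33 ACT the share in Lyz2-high cells was 3.03% (1 of 33 cells, exact upper limit 15.8%), too few cells to set it against the share in CD8 T cells.

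These 192 cells carried Treg genes at levels between the other CD8 T cells and the Tregs. Ctla4 was at 1858 CPM in them, 176 CPM in CD8 T cells without Foxp3 and 2534 CPM in Tregs. Ikzf2 was at 787, 92.0 and 1070 CPM, and Izumo1r at 263, 10.1 and 401 CPM. Cd4 was at 139 CPM against 5.85 CPM in CD8 T cells without Foxp3, and Cd8a at 212 CPM against 744 CPM. Doublets of a Treg and a CD8 T cell were not separated from single cells here, and their part in these levels was not tested.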
